A study of Mus musculus with 30 samples.

Results

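The effect of perfluorooctane sulfonate (PFOS), a persistent fluorinated surfactant, on fetal liver was examined at the lower of 2 exposures, by comparing all 5 liver arrays of the 5 mg/kg/day group with all 5 liver arrays of the 0 mg/kg/day group. These are 10 of the 30 arrays of a study that also holds liver at 10 mg/kg/day and lung at the same 3 doses. Pregnant CD-1 mice, an outbred stock, were given PFOS as its potassium salt by mouth in 0.5% Tween 20 on gestation days 1 to 17. The 0 mg/kg/day group has the same 0.5% Tween 20 and dosing days, without PFOS, and is called unexposed below. Each array carried RNA of 1 litter, pooled from 3 fetuses taken on gestation day 18, and only RNA with an integrity number of at least 8 was used. The pools hide differences between fetuses of a litter, and the p-values below refer to the spread between litters. Levels are log2 values, a change is the log2 difference from the mean of the unexposed litters, and a gene was called at a limma adjusted p under 0.05 over 13269 genes.

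Late in gestation the mouse liver is still the main site of red cell formation. Erythroid precursors divide among the hepatocytes, take up iron, build heme and globin, lay down the membrane proteins of the red cell and finally expel their nucleus. PFOS is known in rodent liver as an activator of the nuclear receptor PPARalpha, which drives genes of fatty acid oxidation. The RNA was of whole tissue, in which fewer cells of a type and less RNA per cell cannot be told apart.

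The arrays carried hepatocyte transcripts, as the liver label says. Albumin, Alb, had 13.83 to 13.88 in exposed litters and 13.82 to 13.87 in unexposed litters, and 0 of 7 tested hepatocyte markers were called in either direction at 5 mg/kg/day. Arrays within a dose correlated across probe sets with r from 0.9904 to 0.9932. Unexposed litters 2, 3 and 5 carried transcripts of stomach. Chymosin, Cym, a milk-clotting protease of the stomach, had 5.60, 5.08, 5.43, 5.38 and 5.40 in exposed litters 1 to 5, against 5.05, 11.27, 9.50, 5.28 and 8.20 in unexposed litters 1 to 5. The pepsinogen gene Pga5 had 3.35 to 3.79 in exposed litters and 3.32, 10.87, 8.40, 3.65 and 7.60 in unexposed litters 1 to 5. Of 13 tested stomach markers 0 were called, and the mean level of those 13 was 5.37 to 5.65 in exposed litters and 5.43 to 6.61 in unexposed litters. Over all 19 matched markers it was 4.74 to 4.97 and 4.76 to 6.32. Genes had to pass the filter in at least 5 of 15 liver arrays, so Pga5, bright in unexposed litters 2, 3 and 5 alone, was not tested. Levels that differ among unexposed litters also widen the spread, so the 0 calls cannot measure this carry-over. Counts without these 3 unexposed litters, which also leaves fewer samples, are given below where they differ by over 1.5 times. Pancreas markers varied between litters of both groups, and 0 of 12 tested were called. Their mean level was 4.90, 6.055, 6.07, 6.05 and 5.22 in exposed litters 1 to 5. In unexposed litters 1 to 5 it was 4.87, 5.91, 5.66, 6.11 and 5.49. Whether pancreas was carried over was not tested.

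PFOS at 5 mg/kg/day was followed by 565 higher and 240 lower genes. These are 4.26% and 1.81% of the genes tested, and at 10 mg/kg/day the shares were 5.3% (703 genes higher) and 5.22% (692 genes lower). Rises were the larger changes, since 66 of the 71 called genes with a change of at least 1 were higher. The median change was 0.46 among the genes called higher and -0.39 among those called lower. Of the genes called higher 132 were on a list, 52 of them on those of lipid oxidation and lipid handling, and 433 on none, and of those called lower 61 were on a list and 179 on none. In 642 genes (4.84%) all exposed litters lay above all unexposed litters and in 367 (2.77%) all lay below. Without unexposed litters 2, 3 and 5 the counts were 252 higher and 43 lower, 241 and 36 of them among the genes named by the full set of litters. On leaving out 1 litter the count of lower genes ranged from 148 (exposed litter 5) to 217, also falling to 151 without unexposed litter 2, and 390 of the 565 and 102 of the 240 genes were called in every one of these 10 fits. In contrast 10 against 5 mg/kg/day gave 1 called gene, with 1035 genes (7.8%) at an unadjusted p under 0.05.

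**Figure D1:**
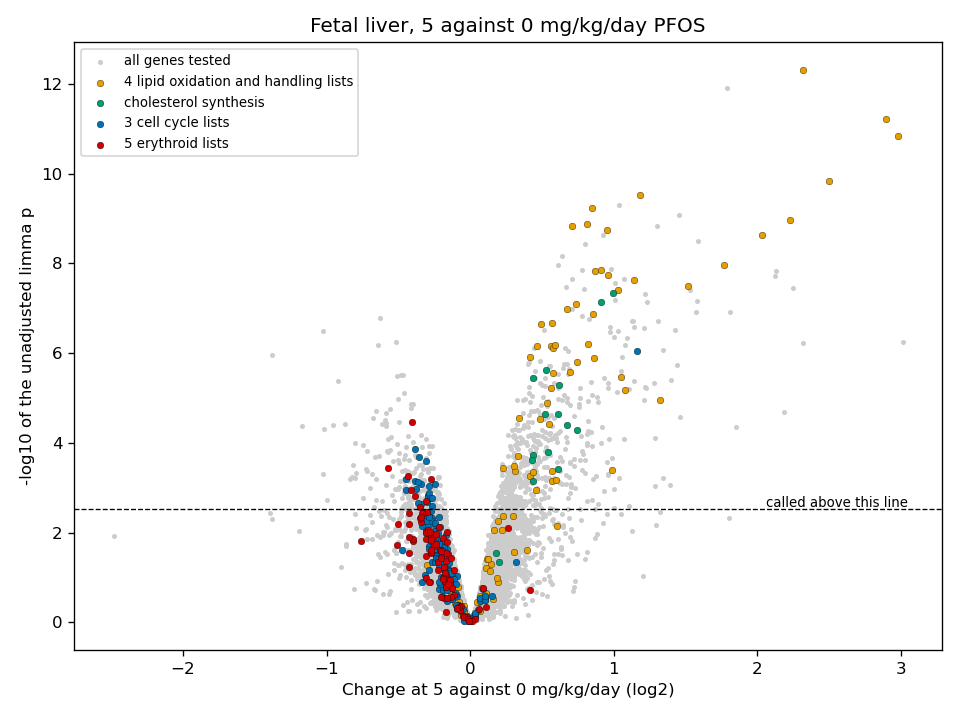
Change at 5 against 0 mg/kg/day (log2, horizontal) against -log10 of the unadjusted limma p (vertical) for 13269 genes of fetal liver, with 4 groups of listed genes coloured. Points above the dashed line were called; lipid and cholesterol genes lie to the right and erythroid and cell cycle genes mostly to the left, with smaller changes.

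Most erythroid genes had a negative change at 5 mg/kg/day, and a few of them fell past the threshold, by small amounts. Of 89 tested members of 5 erythroid lists, 8 were called lower (8.99%, against 1.81% of all genes) and 0 higher, and 82 had a negative change. Their median change was -0.21 at 5 and -0.10 at 10 mg/kg/day, against -0.01 and -0.02 for all genes tested. In 17 of the 89 all exposed litters lay below all unexposed litters, against 2.77% of all genes. At 10 mg/kg/day 5 were called lower (5.62%, against 5.22% of all genes) and 1 higher. Between the doses 7 of the 89 had an unadjusted p under 0.05, all higher at 10 than at 5 mg/kg/day. That is 7.87%, against 7.8% of all genes, and 0 passed the adjusted threshold, so the erythroid changes were not shown to differ between the doses. Both doses are set against the same 5 unexposed litters.

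Membrane and surface genes of the red cell had the lowest median among these lists, at -0.31 and -0.12 at 5 and 10 mg/kg/day over 22 tested members. Their mean level in each litter was 8.27, 8.41, 8.35, 8.26 and 8.21 in exposed litters 1 to 5, against 8.76, 8.71, 8.46, 8.53 and 8.55 in unexposed litters 1 to 5, so the groups did not overlap. At 10 mg/kg/day the litters spread from 8.26 to 8.68, with litters 2 and 5 within the range of the unexposed litters. The called members were Aqp1, Rhd and Ermap. Aqp1, the water channel of the red cell membrane, had 8.87, 8.91, 9.03, 8.45 and 8.75 in exposed litters 1 to 5, against 9.41, 9.72, 9.32, 9.31 and 9.09 in unexposed litters. Every exposed litter was below every unexposed one. It fell by 0.57 (SE 0.13, limma adjusted p = 0.0125) and had -0.48 at 10 mg/kg/day (adjusted p = 0.0219), so its fall was seen at both doses. Rhd, which carries the Rh blood group antigen, had a change of -0.39 (adjusted p = 0.0318), and Ermap, an erythroid membrane-associated protein, one of -0.35 (adjusted p = 0.0468). Both calls ended on leaving out 1 litter, that of Rhd in 5 of 10 fits (exposed litters 1, 4 and 5 and unexposed litters 1 and 2, highest adjusted p = 0.0848) and that of Ermap in 9 of 10 (all but unexposed litter 3, highest adjusted p = 0.119). The anion exchanger Slc4a1, the most abundant membrane protein of the red cell, had -0.12 (adjusted p = 0.569) by its brightest probe set. The other 2 probe sets of Slc4a1 had -0.37 and -0.46, and the mean of the 3 gave -0.32 (adjusted p = 0.185).

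The promoters of the 2 members with the largest falls are shown because GATA1 and KLF1, the leading transcription factors of red cells, bind GATA and CACCC sequences. Capitals mark a GATA site (AGATAA or else TGATAA) and the CACCC box on either strand in the window from 250 bases before to 50 after the start (RefSeq, GRCm38.p6).
Aqp1 (chr6:55336049-55336348, plus strand): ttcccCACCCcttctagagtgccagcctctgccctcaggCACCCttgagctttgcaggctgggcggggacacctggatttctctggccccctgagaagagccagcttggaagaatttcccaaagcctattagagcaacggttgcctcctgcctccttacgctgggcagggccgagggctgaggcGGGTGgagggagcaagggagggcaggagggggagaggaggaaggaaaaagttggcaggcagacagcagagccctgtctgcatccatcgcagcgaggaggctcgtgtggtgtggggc
Rhd (chr4:134864286-134864585, plus strand): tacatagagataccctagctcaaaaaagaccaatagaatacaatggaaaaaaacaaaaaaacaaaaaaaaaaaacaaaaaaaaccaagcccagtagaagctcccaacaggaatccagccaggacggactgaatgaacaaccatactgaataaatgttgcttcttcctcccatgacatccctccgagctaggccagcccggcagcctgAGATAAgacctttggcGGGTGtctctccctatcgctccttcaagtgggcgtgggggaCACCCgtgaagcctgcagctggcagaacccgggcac
Aqp1 held 3 CACCC matches, and Rhd 1 GATA match and 2 CACCC matches. Of 16 list members with a promoter in the RefSeq table, 6 held a GATA match (37.5%, against 10.7% of the 10687 tested genes with a promoter) and 15 a CACCC match (93.8%, against 63.3%). Such matches describe the letters in this window only.

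Among transcription and signalling genes of the erythroid lineage 2 of 21 were called lower, Hemgn and Klf1, and all 21 had a negative change (median -0.25 at 5 and -0.15 at 10 mg/kg/day). Hemgn encodes a nuclear protein of erythroid precursors. It had 10.61, 10.67, 10.79, 10.59 and 10.68 in exposed litters 1 to 5, against 11.19, 11.07, 10.98, 11.07 and 11.07 in unexposed litters 1 to 5. The groups were apart, with means of 10.67 ± 0.08 in exposed and 11.08 ± 0.08 in unexposed litters (SD, n = 5 each). Hemgn fell by 0.41 (SE 0.07, limma adjusted p = 0.0023), a call that held on leaving out each litter (highest adjusted p = 0.00842) and without unexposed litters 2, 3 and 5 (adjusted p = 0.0311), but not with lung and liver arrays in 1 fit (adjusted p = 0.30). At 10 mg/kg/day its litters had 10.88, 11.04, 10.83, 10.66 and 10.98, a change of -0.20 (adjusted p = 0.0878), and the difference between the doses had an unadjusted p = 0.0107 and an adjusted p = 0.522. Klf1, the erythroid Krüppel-like factor that switches on globin and membrane genes, had 10.09, 10.37, 10.27, 10.21 and 10.13 in exposed litters, against 10.86, 10.81, 10.43, 10.49 and 10.52 in unexposed litters. All exposed litters lay below the unexposed ones, and Klf1 fell by 0.41 (adjusted p = 0.0249). That call ended without exposed litter 1 or 5 or unexposed litter 1 or 2 (highest adjusted p = 0.0716). Gata1, the central transcription factor of red cells, had -0.28 (adjusted p = 0.18), and Epor, the erythropoietin receptor, had -0.43 (adjusted p = 0.182).

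Few genes of heme, iron and globin were called. Of 18 tested genes of heme synthesis and iron uptake 1 was called lower (5.56%, against 1.81% of all genes), Uros, the uroporphyrinogen III synthase. It fell by 0.27 (limma adjusted p = 0.0176) and lost its call without exposed litter 5 (adjusted p = 0.0532), and another probe set of Uros had a change of 0.11. Alas2, the first enzyme of heme synthesis in red cells, had -0.17 at 5 and 0.07 at 10 mg/kg/day, and Tfrc, the transferrin receptor, had -0.25 and -0.19, none of them called. Of 5 globin genes 0 were called, and the embryonic globin gene Hbb-y had -0.76 (adjusted p = 0.131), with exposed litters at 5.34 to 6.89 and unexposed litters at 6.44 to 7.48. Among 23 genes of red cell enzymes and maturation, 2 were called lower (8.70%), Xpo7 and Ubac1. Xpo7, a nuclear exportin needed for chromatin condensation in maturing red cells, had 9.48, 9.77, 9.97, 9.78 and 9.64 in exposed litters, against 10.28, 10.18, 9.99, 10.25 and 10.13 in unexposed litters. It fell by 0.44 (SE 0.10, adjusted p = 0.0164), with the highest exposed litter just under the lowest unexposed one, and with its probe sets averaged the adjusted p was 0.0528. Ubac1 had -0.31 (adjusted p = 0.0377), a call lost in 9 of 10 fits without 1 litter, all but that without unexposed litter 4 (highest adjusted p = 0.0995). The count of 8 called erythroid genes was 4, 8, 7, 5 and 3 without exposed litters 1 to 5 in turn and 4, 4, 14, 8 and 8 without unexposed litters 1 to 5. Without unexposed litters 2, 3 and 5 it was 1, Hemgn.

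Of 16 hepatocyte genes that govern iron 1 was called lower (6.25%, against 1.81% of all genes) and 0 higher. Tmprss6, a protease that restrains the iron hormone hepcidin, had changes of -0.44 and -0.59 in the order of dose, with limma adjusted p = 0.0264 and 0.00274. Its lower-dose call ended without exposed litter 2, 4 or 5 or unexposed litter 1 or 3 (highest adjusted p = 0.0712), and also without unexposed litters 2, 3 and 5 (0.221). Hamp, which encodes hepcidin itself, had 6.38, 9.90, 9.48, 10.57 and 10.43 in exposed litters, against 10.23, 9.85, 10.68, 9.23 and 8.94 in unexposed litters. Exposed litter 1 stood alone, and the change of -0.43 (adjusted p = 0.796) became 0.31 without it.

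**Figure D2:**
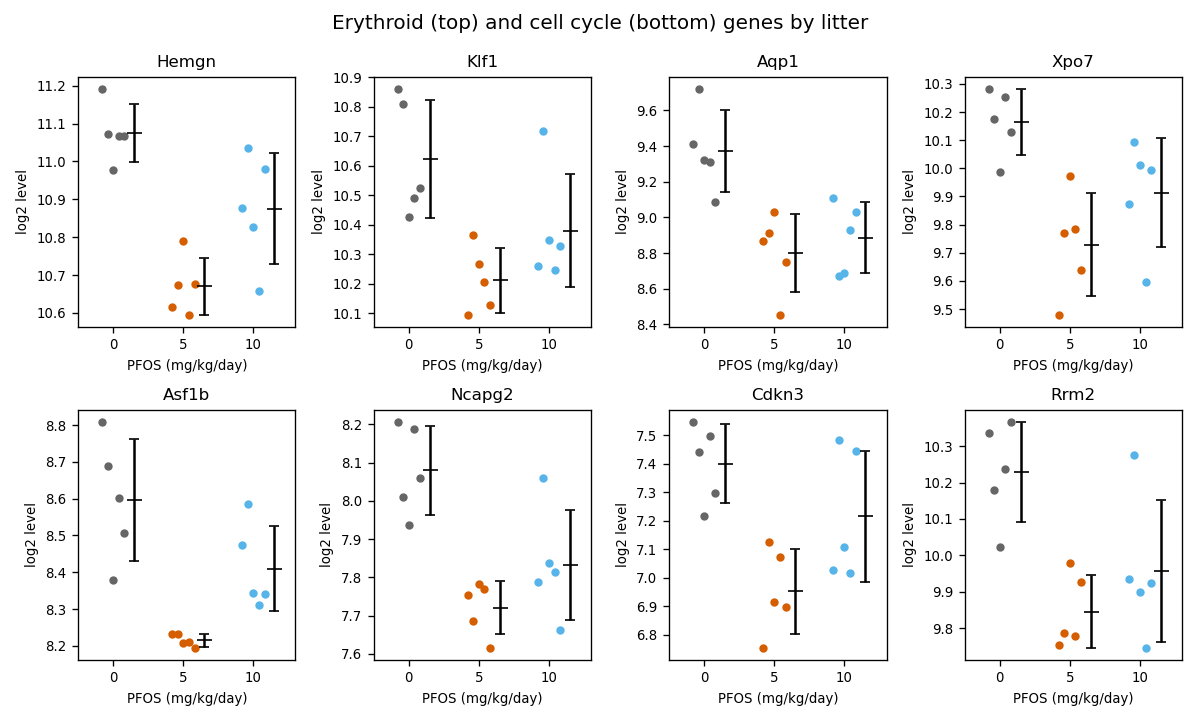
Log2 level of 4 erythroid genes (top) and 4 cell cycle genes (bottom) in each litter at 0, 5 and 10 mg/kg/day; points are litters and bars the mean ± SD of 5 litters. The 8 genes were picked from called genes, and in all 8 the litters at 5 mg/kg/day lie below those at 0 mg/kg/day. Of the tested genes 17 of 89 erythroid and 29 of 165 cell cycle genes were so separated. In all 8 the highest litter at 10 mg/kg/day lies above the highest at 5 mg/kg/day. Picking genes with low litters at 5 mg/kg/day favours this order, so it shows no difference between the doses.

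Some of the cell cycle genes fell at each dose. Of 165 tested members of 3 lists, 20 were called lower (12.1%, against 1.81% of all genes) and 1 higher at 5 mg/kg/day, and 22 lower (13.3%, against 5.22% of all genes) and 1 higher at 10 mg/kg/day. At 5 mg/kg/day 150 of the 165 had a negative change and 29 had all exposed litters below all unexposed ones, against 2.77% of all genes. Between the doses 6 (3.64%) had an unadjusted p under 0.05, against 7.8% of all genes, so these genes were not shown to be specific to the lower dose. The count of 20 was 7, 16, 20, 13 and 7 without exposed litters 1 to 5 in turn, 5, 10, 27, 14 and 14 without unexposed litters 1 to 5, and 4 without unexposed litters 2, 3 and 5. Dividing cells of this liver include blood precursors and hepatocytes, and the part of each in these values was not tested.

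Genes of the G2 phase and mitosis had a median change of -0.23 at 5 and -0.19 at 10 mg/kg/day, with 10 of 68 called lower at each dose. Their mean level was 7.53, 7.75, 7.78, 7.75 and 7.65 in exposed litters 1 to 5, against 8.00, 7.95, 7.78, 7.97 and 7.92 in unexposed litters 1 to 5, so only unexposed litter 3 came down to the exposed range. Ncapg2, a subunit of condensin II, which compacts chromosomes, had 7.75, 7.69, 7.78, 7.77 and 7.61 in exposed litters, against 8.21, 8.01, 7.94, 8.19 and 8.06 in unexposed litters. The groups were apart, and Ncapg2 fell by 0.36 (SE 0.07, limma adjusted p = 0.00839), a call kept on leaving out each litter (highest adjusted p = 0.0272) and without unexposed litters 2, 3 and 5 (adjusted p = 0.0213), but not with lung and liver arrays in 1 fit (adjusted p = 0.229). That fit called 0 of the 68 genes lower. Cenpf, a centromere protein, had 7.45, 7.87, 7.95, 7.78 and 7.61 in exposed litters, against 8.17, 8.11, 8.05, 8.14 and 8.08 in unexposed litters. Its litters did not overlap and its change was -0.38 (adjusted p = 0.0246). That call ended without exposed litter 1 or 5 or unexposed litter 1 or 2 (highest adjusted p = 0.0691), and the other 2 probe sets of Cenpf had -0.06 and -0.20, with an average of -0.21 over the 3 (0.169). Mki67, the Ki-67 marker of dividing cells, had -0.29 at 5 and -0.17 at 10 mg/kg/day (adjusted p = 0.0325 and 0.181), and lost its lower-dose call without exposed litter 1, 2 or 5 or unexposed litter 1, 4 or 5 (highest adjusted p = 0.0854). Cdk1, the kinase that drives entry into mitosis, had -0.27 and -0.24 and was not called (adjusted p = 0.0655 and 0.069). Without exposed litters 1 to 5 in turn the count of 10 was 2, 8, 12, 6 and 3, without unexposed litters 1 to 5 it was 2, 5, 12, 5 and 6, and without unexposed litters 2, 3 and 5 it was 2.

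The promoter of Cenpf, the called member with the largest fall, is shown because promoters of mitotic genes are known for a CHR element (TTTGAA) downstream of CCAAT boxes. Capitals mark TTTGAA or CCAAT on either strand, and no motif overlaps another.
Cenpf (chr1:189688037-189688336, minus strand): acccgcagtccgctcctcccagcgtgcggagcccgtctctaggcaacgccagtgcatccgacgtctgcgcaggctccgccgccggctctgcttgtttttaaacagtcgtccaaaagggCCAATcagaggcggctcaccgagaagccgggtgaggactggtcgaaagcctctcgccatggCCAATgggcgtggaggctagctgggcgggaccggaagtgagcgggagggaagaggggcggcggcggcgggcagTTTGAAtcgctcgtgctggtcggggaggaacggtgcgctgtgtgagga
It held CCAAT matches at positions -132 and -71 from the start and a CHR match at position 2. The promoter of Sgo1, the called member with the next largest fall, is not shown. It held 1 CCAAT match, at position 2, and no CHR match. Of 57 tested G2 and M genes with a promoter 43 held TTTGAA (75.4%, against 12.1% of all tested genes with one) and 39 held CCAAT (68.4%, against 38.3%). Among the 9 called members with a promoter 6 and 7 did.

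In the S phase and replication list 8 of 55 genes were called lower at 5 and 10 at 10 mg/kg/day, with medians of -0.18 and -0.19. Asf1b, a histone chaperone of replicating cells, had 8.19 to 8.23 in exposed litters, against 8.81, 8.69, 8.38, 8.60 and 8.51 in unexposed litters 1 to 5. The exposed litters lay close together and below all unexposed ones. Asf1b fell by 0.38 (SE 0.08, limma adjusted p = 0.00612), a call kept on leaving out each litter (highest adjusted p = 0.0205) and without unexposed litters 2, 3 and 5 (0.0105), but not with lung and liver arrays in 1 fit (0.0555). It had -0.19 at 10 mg/kg/day, with an unadjusted p = 0.0214 and an adjusted p = 0.581 between the doses. Rrm2, a subunit of ribonucleotide reductase, had 9.76, 9.79, 9.98, 9.78 and 9.93 in exposed litters, against 10.34, 10.18, 10.02, 10.24 and 10.37 in unexposed litters. It fell by 0.38 (adjusted p = 0.0187), and without unexposed litter 1 its adjusted p was 0.0511, and 0.211 with lung and liver arrays in 1 fit. Clspn, a checkpoint protein of replication forks, had -0.36 at 5 and -0.29 at 10 mg/kg/day (adjusted p = 0.0189 and 0.0452), and lost the first call without exposed litter 5 or unexposed litter 1 (highest adjusted p = 0.0534). The sliding clamp gene Pcna had -0.28 and -0.29 (adjusted p = 0.0343 and 0.0206), and lost its lower-dose call without exposed litter 1, 4 or 5 or unexposed litter 1, 2, 4 or 5 (highest adjusted p = 0.0911). The helicase gene Mcm5 had -0.25 and -0.31 at 5 and 10 mg/kg/day and was called at the higher dose alone (adjusted p = 0.0957 and 0.0262). Without exposed litters 1 to 5 in turn the count of 8 was 4, 6, 6, 6 and 2, and without unexposed litters 1 to 5 it was 2, 4, 13, 6 and 6. It was 2 without all of unexposed litters 2, 3 and 5.

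Cell cycle control genes went both ways, with 1 of 42 higher and 2 lower (2.38% and 4.76%, against 4.26% and 1.81% of all genes). These were 2 higher and 0 lower without unexposed litters 2, 3 and 5. Gadd45b, a stress-induced growth arrest gene, had 8.00, 8.19, 7.90, 7.71 and 8.05 in exposed litters, against 6.64, 6.61, 7.01, 7.03 and 6.77 in unexposed litters. The groups were far apart, and Gadd45b rose by 1.16 (SE 0.15, limma adjusted p = 0.000146) and by 1.28 at 10 mg/kg/day. Its other probe sets had 0.06 and 1.30. Cdkn3, a phosphatase that acts on cyclin-dependent kinases, had 6.75, 7.13, 6.92, 7.07 and 6.90 in exposed litters, against 7.55, 7.44, 7.22, 7.50 and 7.30 in unexposed litters. It fell by 0.45 (adjusted p = 0.0178, at most 0.0497 on leaving out 1 litter), and had -0.19 at 10 mg/kg/day, with an unadjusted p = 0.0247 between the doses. The inhibitor gene Cdkn2c had -0.45 (adjusted p = 0.0253), a call lost without exposed litter 1 or 4 or unexposed litter 1, 2 or 5 (highest adjusted p = 0.0725). Cdkn1a, the p53 target that encodes p21, had 0.32 (adjusted p = 0.239), with exposed litter 1 at 8.70 and the other exposed litters at 8.08 to 8.18. Without unexposed litters 2, 3 and 5 its change was 0.66 and it was called (adjusted p = 0.0413). Of 18 p53 targets 1 was called higher (5.56%, near the 4.26% of all genes). It was the kinase gene Plk2, with a change of 0.50 (adjusted p = 0.0261), or 0.28 with its probe sets averaged (0.104). That call ended without exposed litter 1 or 5 or unexposed litter 1, 2 or 3 (highest adjusted p = 0.0698), or all of unexposed litters 2, 3 and 5 (0.161).

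**Figure D3:**
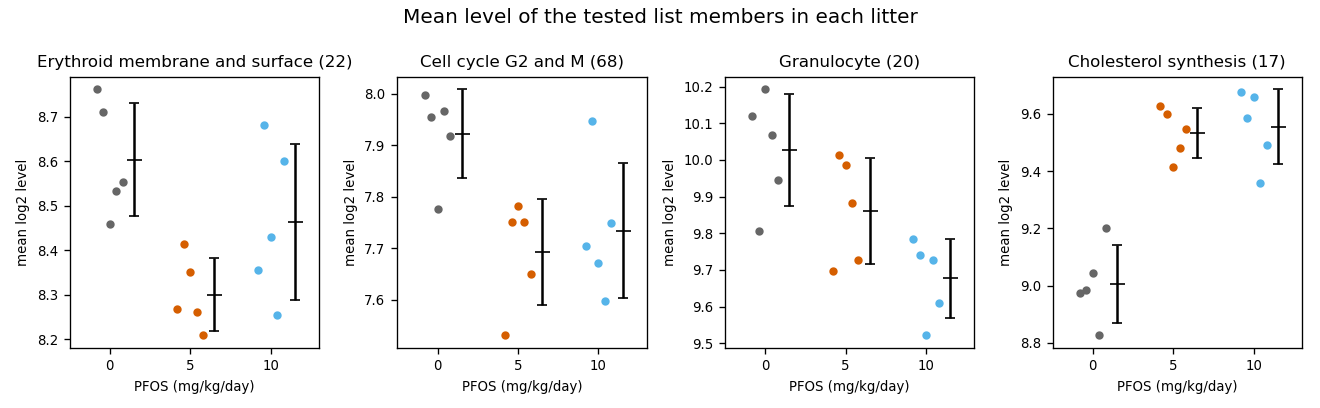
Mean log2 level of the tested members of 4 gene lists in each litter at 0, 5 and 10 mg/kg/day; points are litters, bars the mean ± SD of 5 litters and the number of members stands in each title. Erythroid membrane genes have their lowest mean at 5 mg/kg/day, granulocyte markers theirs at 10 mg/kg/day, and cholesterol synthesis genes are higher at both doses.

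Other blood cells of the fetal liver were measured with their own markers. At 5 mg/kg/day 0 of 20 granulocyte, 0 of 25 macrophage and 0 of 19 megakaryocyte and platelet markers were called. Nor were any called among 5 mast cell and 14 B lineage markers. At 10 mg/kg/day 7 of the 20 granulocyte, 2 of the 25 macrophage and 1 of the 19 megakaryocyte markers were called lower. Of all genes 5.22% were called lower at that dose, and the macrophage and megakaryocyte counts were near that share. Changes at 5 mg/kg/day were negative in most of these markers, in 17 of 20, 23 of 25, 15 of 19, 5 of 5 and 13 of 14 in that order, as in 82 of the 89 erythroid genes and in 7171 of all 13269 genes. Median changes at 5 and 10 mg/kg/day were -0.17 and -0.35 for granulocytes, -0.11 and -0.20 for macrophages, and -0.20 and -0.07 for the B lineage. The granulocyte mean level was 9.70 to 10.01 in exposed litters and 9.81 to 10.19 in unexposed litters, so these groups overlapped. The neutrophil elastase gene Elane had -0.22 and -0.37 at 5 and 10 mg/kg/day and was called at the higher dose alone, with limma adjusted p = 0.237 and 0.0274. Myeloperoxidase, Mpo, had -0.20 and -0.32 (adjusted p = 0.309 and 0.0563), and Pglyrp1, a bactericidal granule protein, had -0.62 and -0.57 (adjusted p = 0.0621 and 0.0631). The macrophage genes Adgre1 and Csf1r had -0.31 and -0.10 at 5 mg/kg/day, the platelet gene Pf4 had -0.14, and the recombinase gene Rag1 had -0.38, none of them called.

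**Figure D4:**
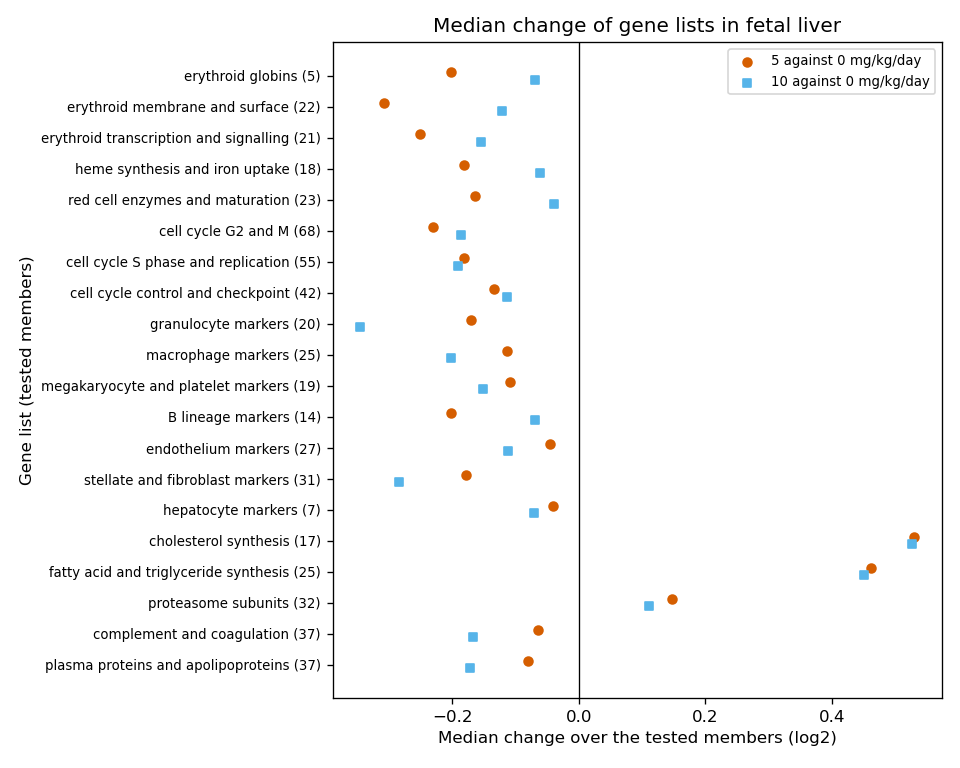
Median change (log2) over the tested members of 20 gene lists in fetal liver at 5 (circles) and 10 mg/kg/day (squares) against the same unexposed litters, with the number of members in brackets. All 5 erythroid lists have a lower median at 5 than at 10 mg/kg/day, granulocyte and stellate markers the reverse, and cholesterol synthesis genes nearly the same median at both.

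Some markers of supporting cells fell. Of 31 stellate cell and fibroblast markers 4 were called lower at 5 mg/kg/day (12.9%, against 1.81% of all genes). At 10 mg/kg/day 8 were called lower, against 5.22% of all genes. The mean level of the 31 was 7.30 to 7.49 in exposed litters, against 7.41, 7.69, 7.64, 7.44 and 7.51 in unexposed litters 1 to 5. Only unexposed litters 2, 3 and 5, those with stomach transcripts, lay above the exposed range. Ecm1, a matrix protein, fell by 0.49 and Reln, the secreted glycoprotein reelin, by 0.28 (limma adjusted p = 0.00709 and 0.00728), with no overlap of the litters in either. With probe sets averaged Reln had -0.12 (adjusted p = 0.298). Igfbp3, a binding protein of insulin-like growth factors, had -0.48 and Tagln, a smooth muscle actin-binding protein, had -0.42. The Igfbp3 call ended without exposed litter 1, 3 or 4 or unexposed litter 1, 2 or 3 (highest adjusted p = 0.0835), and the Tagln call without exposed litter 1 or 5 or unexposed litter 2, 3 or 5 (0.0672). Without all of unexposed litters 2, 3 and 5 Igfbp3 had -0.33 and Tagln -0.16 (adjusted p = 0.335 and 0.529). The count of 4 was 2 without exposed litter 1 or unexposed litter 2 or 3 and 6 without unexposed litter 4, and without unexposed litters 2, 3 and 5 it was 0. Of 27 endothelial markers 1 was called lower (3.70%, against 1.81% of all genes). It was the scavenger receptor gene Stab2 of liver sinusoids, at -0.33 (adjusted p = 0.0412). It was not called without exposed litter 2, 3 or 5 or unexposed litter 1, 3 or 4 (highest adjusted p = 0.104). Without unexposed litters 2, 3 and 5 the endothelial counts were 1 higher and 0 lower, with Stab2 at an adjusted p = 0.196.

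Cholesterol synthesis rose nearly as a whole pathway. Of 17 tested genes 14 were called higher at each dose, all 17 had a positive change, and the median change was 0.53 at both doses. The mean level was 9.63, 9.60, 9.42, 9.48 and 9.55 in exposed litters 1 to 5, against 8.97, 8.99, 9.04, 8.83 and 9.20 in unexposed litters, without overlap. Hsd17b7, which reduces a sterol ketone late in the pathway, had 10.29, 10.04, 10.02, 9.80 and 10.30 in exposed litters, against 8.970, 9.004, 9.309, 9.019 and 9.176 in unexposed litters. It rose by 0.99 (SE 0.10, limma adjusted p = 1.54e-05). Lss, which closes the sterol rings as lanosterol, had 10.18, 10.36, 9.98, 10.15 and 10.10 in exposed litters, against 9.34, 9.26, 9.30, 8.97 and 9.34 in unexposed litters. It rose by 0.91 (SE 0.10, adjusted p = 2.22e-05), and its other probe sets had 0.45 and 0.58. The mevalonate pathway genes Mvd and Pmvk rose by 0.74 and 0.67. Of all genes 4.26% were called higher at 5 and 5.3% at 10 mg/kg/day. The count of 14 was 14 on leaving out any 1 litter and 13 without unexposed litters 2, 3 and 5. Of 16 genes of sterol control and uptake 3 were called higher (18.75%) and 0 lower, and 5 had a negative change. Among the 3, Srebf1, the sterol and lipid transcription factor gene, rose by 0.29. Lpcat3, which places polyunsaturated chains in phospholipids, rose by 0.92. Npc1, which moves cholesterol out of lysosomes, rose by 0.35 (adjusted p = 0.0175) and had 0.05 at 10 mg/kg/day, with an unadjusted p = 0.00221 and an adjusted p = 0.436 between the doses. Its lower-dose call ended without unexposed litters 2, 3 and 5 (0.139).

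The promoters of Hsd17b7 and Lss are shown because the sterol-responsive factor SREBP2 acts on such promoters together with the CCAAT-binding factor NF-Y. Capitals mark CCAAT or TCACNCCAC, one form of the sterol regulatory element, on either strand.
Hsd17b7 (chr1:169969156-169969455, minus strand): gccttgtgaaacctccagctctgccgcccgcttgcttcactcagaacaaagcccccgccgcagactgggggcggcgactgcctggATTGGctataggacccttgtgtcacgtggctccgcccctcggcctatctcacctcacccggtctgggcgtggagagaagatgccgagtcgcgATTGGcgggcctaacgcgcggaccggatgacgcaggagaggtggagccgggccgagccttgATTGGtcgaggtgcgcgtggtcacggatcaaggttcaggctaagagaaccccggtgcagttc
Lss (chr10:76531355-76531654, plus strand): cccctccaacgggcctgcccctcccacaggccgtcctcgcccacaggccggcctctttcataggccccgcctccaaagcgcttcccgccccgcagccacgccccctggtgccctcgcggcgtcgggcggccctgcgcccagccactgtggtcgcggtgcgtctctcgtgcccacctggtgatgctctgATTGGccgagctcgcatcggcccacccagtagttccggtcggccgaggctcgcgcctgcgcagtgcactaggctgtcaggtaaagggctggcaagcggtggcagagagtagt
Hsd17b7 held 3 CCAAT matches and Lss 1, and neither held TCACNCCAC. Of 14 pathway genes with a promoter 13 held CCAAT (92.9%, against 38.3%) and 1 held TCACNCCAC (7.14%, against 1.04%).

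Fatty acid synthesis rose with it. Of 25 genes of fatty acid and triglyceride synthesis 14 were called higher (56%, against 4.26% of all genes) and 0 lower at 5 mg/kg/day, with a median of 0.46. Malic enzyme, Me1, which supplies reducing power, rose by 1.31, Acss2, which makes acetyl-CoA from acetate, by 0.96 and Gpat3, an acyltransferase of triglyceride synthesis, by 0.81. The other probe sets of Acss2 had 1.13 and 0.40. Without unexposed litters 2, 3 and 5 the count was 9, and Gpat3 was not among them (adjusted p = 0.165). In the 4 lists of lipid oxidation and handling 52 of 95 genes were called higher (54.7%), among them Acot1, a fatty acyl-CoA thioesterase, at 2.98, and Ehhadh of the peroxisome at 2.90.

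Genes best known from the small intestine, where they handle dietary fat, were among the risers. Of 8 such markers 3 were called higher (37.5%, against 4.26% of all genes), with 0 lower, 2 of 8 without unexposed litters 2, 3 and 5, and liver is known to express Mttp and Apoa4 as well. Fabp2, a fatty acid-binding protein, had 7.04, 7.52, 7.51, 8.47 and 7.71 in exposed litters, against 5.90, 6.79, 6.30, 6.24 and 6.42 in unexposed litters. It rose by 1.32 (SE 0.21, limma adjusted p = 0.000958). Mttp, which loads lipid onto apolipoprotein B, rose by 0.97 (adjusted p = 6.8e-05). Apoa4, an apolipoprotein of lipid-rich particles, had 8.21, 6.63, 6.96, 8.45 and 7.27 in exposed litters, against 5.39, 6.12, 6.41, 6.17 and 6.49 in unexposed litters. It rose by 1.39 at 5 mg/kg/day (SE 0.34, adjusted p = 0.021) and had 0.04 at 10 mg/kg/day, where its litters had 6.28, 5.75, 5.70, 7.05 and 6.02. The difference between the doses had an unadjusted p = 0.0011 and an adjusted p = 0.412. Exposed litters 1 and 4 were the highest, and the lower-dose call ended without exposed litter 1 or 4 or unexposed litter 1 (highest adjusted p = 0.0598), or all of unexposed litters 2, 3 and 5 (0.0864).

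Of the 8 called genes chosen for the widest gap between the doses, Apoa4 and the retinol dehydrogenase gene Rdh9 had the larger change at the lower dose. Rdh9 had 5.85, 5.91, 6.70, 5.59 and 6.14 in exposed litters, against 4.86, 4.81, 4.97, 5.64 and 5.26 in unexposed litters. The change was 0.93 (limma adjusted p = 0.0261) at 5 and -0.05 at 10 mg/kg/day. Its call ended without exposed litter 3 or 5 or unexposed litter 1, 2 or 3 (highest adjusted p = 0.0714), or all of unexposed litters 2, 3 and 5 (0.299). The others, among them Rnf186, Naaladl1, Plppr1 and Cyp39a1, went further at 10 mg/kg/day. Rnf186, a ubiquitin ligase gene, had 1.43 and 2.09, and Plppr1, a phospholipid phosphatase-related membrane protein, had -0.65 and -1.30. With its probe sets averaged Plppr1 had -0.43 at the lower dose. Of the differences between doses given here, 0 passed the adjusted threshold.

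Enzymes that handle foreign and reactive compounds changed in part, where 4.26% of all genes rose and 1.81% fell. Of 12 carboxylesterases, which split esters and lipids, 6 rose (50%) and 2 fell (16.7%). The 6 rises were 6 or 7 on leaving out 1 litter and 6 without unexposed litters 2, 3 and 5. The 2 falls became 0 without exposed litter 4 or 5 or unexposed litter 2, 1 without exposed litter 1 or 2 or unexposed litter 1, 3 or 5, and 0 without unexposed litters 2, 3 and 5. Ces1f had 8.31, 8.55, 8.23, 6.59 and 7.62 in exposed litters, against 4.72, 4.31, 4.87, 4.40 and 5.96 in unexposed litters, with the lowest exposed litter still above the highest unexposed one. It rose by 3.01 (SE 0.37, limma adjusted p = 0.000107), Ces1e by 2.25 and Ces1d by 1.08. The Ces1 genes are near copies of each other, as are the Serpina1, Acot and Cyp3a genes, so a probe set of one can take up transcripts of another. Of 46 cytochromes and other drug-metabolising enzymes 6 rose (13.04%) and 2 fell (4.35%), and without unexposed litters 2, 3 and 5 there were 3 and 0. The count of 2 was 1 without exposed litter 1, 2 or 4 or unexposed litter 2, 3 or 4. The epoxide hydrolase genes Ephx1 and Ephx2 rose by 1.23 and 1.21, Cyp3a25 rose by 1.03 and Cyp2f2 fell by 0.79, and the calls of Cyp3a25 and Cyp2f2 ended without those 3 litters (adjusted p = 0.19 and 0.233). Of 25 aldehyde and alcohol dehydrogenases 7 rose (28%) and 1 fell (4%), with Aldh1a7 at 2.32 and Hsd17b11, a lipid droplet enzyme, at 0.96. Of 42 genes of glutathione and oxidative stress 5 rose (11.9%) and 3 fell (7.14%), and without unexposed litters 2, 3 and 5 there were 2 and 1. The count of 5 was 3 without exposed litter 2, 3 or 5 or unexposed litter 1 or 3. The transferase genes Gstt2 and Gstt3 rose by 1.09 and 0.91, while Gsta4, which clears lipid aldehydes, fell by 0.55. Gstm2 had -0.70, a call lost without exposed litter 1, 2 or 4 (highest adjusted p = 0.0643) and without unexposed litters 2, 3 and 5 (0.179).

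Some secreted proteins of the hepatocyte changed at 5 mg/kg/day. Of 37 complement and coagulation genes 1 rose (2.70%, against 4.26% of all genes) and 3 fell (8.11%, against 1.81%) at 5 mg/kg/day. At 10 mg/kg/day 6 fell, where 5.22% of all genes did. The 3 falls became 1 without exposed litter 1, 2 or 4 or unexposed litter 1, 3 or 4, and without unexposed litters 2, 3 and 5 there were 0 higher and 1 lower. The mannose-binding lectin gene Mbl2 had 8.71, 9.44, 9.46, 9.47 and 9.51 in exposed litters, against 10.14, 10.07, 10.34, 10.10 and 9.65 in unexposed litters. It fell by 0.74 (SE 0.15, limma adjusted p = 0.00518) and by 1.25 at 10 mg/kg/day. With lung and liver arrays in 1 fit the lower-dose call of Mbl2 ended (adjusted p = 0.407). Its relative Mbl1 had 0.35 in the opposite direction (adjusted p = 0.0216), a call lost without exposed litter 3 or 5 or unexposed litter 5 (highest adjusted p = 0.0545). Prekallikrein, Klkb1, and the complement inhibitor gene Cfi had -0.33 and -0.21 and were not called without exposed litter 1, 2 or 4 or unexposed litter 1, 3 or 4, nor Cfi without unexposed litter 2 (highest adjusted p = 0.0832 and 0.0715). Of 37 plasma proteins and apolipoproteins 3 rose and 3 fell (8.11% each), while the higher dose had 1 higher and 12 lower. At 5 mg/kg/day 1 higher and 0 lower were called without unexposed litters 2, 3 and 5. Serpina7, the thyroxine-binding globulin, had 9.01, 9.62, 9.49, 9.10 and 9.32 in exposed litters, against 7.43, 7.36, 8.49, 8.28 and 7.78 in unexposed litters. It rose by 1.44 (SE 0.20, adjusted p = 0.000253) and by 1.86 at 10 mg/kg/day. Apoc2, the cofactor of lipoprotein lipase, rose by 0.43, and the protease inhibitor gene Serpina1c fell by 0.31. Those 2 calls ended without unexposed litters 2, 3 and 5 (adjusted p = 0.112 and 0.0843) and with lung and liver arrays in 1 fit (0.495 and 0.817).

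Hormones, growth factors and their receptors moved both ways, with 6 of 38 higher and 6 lower (15.8% each, against 4.26% and 1.81% of all genes). The counts were 3 higher and 2 lower without unexposed litters 2, 3 and 5. Lepr, the leptin receptor, had 6.10, 6.98, 6.27, 6.64 and 6.69 in exposed litters, against 4.46, 5.04, 5.41, 5.54 and 4.92 in unexposed litters. It rose by 1.46 (SE 0.25, limma adjusted p = 0.00191). Enho, which encodes the peptide adropin, had 6.69, 6.97, 7.28, 6.54 and 7.05 in exposed litters, against 7.69, 7.97, 8.00, 7.95 and 8.05 in unexposed litters. It fell by 1.03 (SE 0.12, adjusted p = 6.63e-05), while its other probe sets had -0.22 and -1.31. Among 37 genes of chemokines and the interferon response 2 rose (5.41%, near the 4.26% of all genes), the chemokine gene Cxcl10 and Oasl1, which is induced by interferon. Cxcl10 had 7.221, 8.114, 7.001, 6.473 and 6.577 in exposed litters, against 5.24, 5.11, 5.49, 4.74 and 5.54 in unexposed litters. It rose by 1.85 (SE 0.33, adjusted p = 0.00285), and Oasl1 rose by 0.35. Without unexposed litter 5 the count of 2 was 4.

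Of 32 proteasome genes 5 were called higher (15.6%, against 4.26% of all genes), and 30 had a positive change, at a median of 0.15. Psmd4 and Psmc4, subunits of the regulatory particle, rose by 0.37 and 0.35 (limma adjusted p = 0.00266 and 0.00492), another probe set of Psmd4 had -0.05, and the call of Psmd4 ended without unexposed litters 2, 3 and 5 (0.0624). The count was 3 to 6 on leaving out 1 litter, with 3 without exposed litter 2, 3 or 5 or unexposed litter 1, 2 or 3, and 1 without unexposed litters 2, 3 and 5. Of 50 respiratory chain genes 1 was called, the cytochrome c gene Cycs at 0.26 (2%, against 4.26% of all genes called higher). Of 28 genes of endoplasmic reticulum stress 1 was called, the transcription factor gene Xbp1 at -0.23 (3.57%, against 1.81% of all genes called lower). The Cycs call ended without exposed litter 1, 4 or 5 or unexposed litter 1, 3 or 5 (highest adjusted p = 0.0843), and that of Xbp1 without exposed litter 1, 2, 3 or 5 or unexposed litter 1, 2 or 3 (0.0737). Without unexposed litters 2, 3 and 5 both lists had 0 calls, with Cycs and Xbp1 at adjusted p = 0.259 and 0.304. Of 26 glucose and glycogen genes 1 rose and 1 fell (3.85% each, against 4.26% and 1.81% of all genes). Gckr, the glucokinase regulator, fell by 0.58 (adjusted p = 0.00656), and Gys2 rose by 0.25. Of 43 amino acid and urea cycle genes 2 rose and 2 fell (4.65% each). Aass of lysine breakdown rose by 0.56 and Slc25a13 by 0.25, while Uroc1 of histidine breakdown fell by 0.39 and Gnmt by 0.30. The calls of Gckr, Aass and Uroc1 ended without unexposed litters 2, 3 and 5 (adjusted p = 0.216, 0.0732 and 0.134). Those of Gys2, Slc25a13 and Gnmt ended there too (0.198, 0.303 and 0.238), and in 9, 7 and 9 of 10 fits without 1 litter. Of 24 bile acid genes 2 fell (8.33%, against 1.81% of all genes). They were the oxysterol hydroxylase gene Cyp39a1, by 0.95, and the organic anion transporter gene Slco1a1, by 0.72. At 10 mg/kg/day 1 of the 24 was higher and 6 lower, where 5.3% and 5.22% of all genes were. Both lower-dose calls ended without unexposed litters 2, 3 and 5 (adjusted p = 0.0605 and 0.0933).

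The 12 largest falls whose litters did not overlap included Enho, Cyp39a1, Cyp2f2 and Mbl2, and the others were dimmer. Fhad1, a gene of a forkhead-associated domain protein, had 4.68, 4.55, 3.71, 4.75 and 4.60 in exposed litters, against 5.86, 5.81, 5.38, 6.14 and 5.98 in unexposed litters. It fell by 1.38 (SE 0.18, limma adjusted p = 0.000177). The 40th percentile of all probe sets was 4.16 to 4.23 on these arrays, so exposed litter 3 lay under it. Lrtm1 fell by 1.17, Tbc1d30 by 1.03, Bcas1 by 0.92, the steroid dehydrogenase gene Hsd3b2 by 0.87 and the neuropeptide gene Npb by 0.83. Lrtm1 lay under that percentile in exposed litters 2, 3 and 4 (3.43, 3.95 and 3.94). At 10 mg/kg/day it lay under it in every litter (3.39 to 3.92). Tbc1d30 lay under it in exposed litters 2 and 3 (3.58 and 3.92). With probe sets averaged Tbc1d30 had -0.65 and Bcas1 -0.35. Without unexposed litters 2, 3 and 5 the calls of Lrtm1, Tbc1d30, Hsd3b2 and Npb ended (adjusted p = 0.0545, 0.122, 0.0557 and 0.189). Among the rises, Lgals2, a galectin, had 6.58, 7.71, 7.41, 7.75 and 7.56 in exposed litters, against 5.07, 5.31, 5.06, 5.23 and 5.71 in unexposed litters. It rose by 2.12 (SE 0.21, adjusted p = 8.98e-06), its other probe set had 0.69, and the mean of both gave 1.41.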

How the data were processed

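Expression was measured on Affymetrix mouse arrays of 45101 probe sets. The deposited values are log2 summaries per probe set made by the authors with RMA, per the submitters' processing notes. Which version of RMA was run, and whether lung and liver were normalized as 1 set, is not given in the sources used. RMA compresses changes of dim probe sets, and normalizing between arrays takes most of them as unchanged.

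The platform annotation gives 1 symbol to 34945 probe sets, several to 932 and none to 9160. The first kind named 18193 genes, and the brightest probe set stood for each. Of 1378 list entries 1255 matched. Genes over the 40th percentile of all probe sets in at least 5 of 15 liver arrays were tested, 13269 in all. Arrays give no depth, so the number of litters limits the precision. limma 3.58.1 in R 4.3.3 was fitted to the 15 liver arrays with 1 mean per dose, and two-sided p-values were Benjamini-Hochberg adjusted over all genes tested. Figures used matplotlib 3.10.9.

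The members and gene lists were chosen with earlier results of these data known. The rule for named genes takes the 12 largest rises and falls without overlap of the litters, up to 4 called members of each list (or 2 with the smallest p), the 8 widest gaps between the doses and a fixed set of blood, cell cycle and liver genes, and gave 154 genes. Those in the text were picked from them after their values were seen, while counts of calls kept or lost under the alternatives cover all 154. Clones, predicted genes and pseudogenes were left out. On simulated data with 50 genes changed at each size, limma called 16 at a change of 0.3, 37 at 0.5, 45 at 0.75 and 49 at 1 in the liver comparison over 13269 genes, with 9 unchanged genes. The simulated noise was independent between genes, and fewer genes were changed than were called in the data. These shares may therefore not hold for the measured litters. Alternatives were other filters and normalizations, averaged probe sets, other arrays in the fit, another variance model, array weights, a sex covariate, the replicate number as a block, and leaving out litters.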

Additional observations from a re-analysis of the deposited data

Results flagged for a closer look

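In 16 of 260 groups of 5 litters 1 litter stood apart, its gap to the nearest other litter being over 0.71 of the whole range of the group. Chance alone flags about 1 in 20 such groups. Exposed litter 1 stood apart in 5 genes. Its level was 6.3792 for Hamp, against 9.48 to 10.57 in the other exposed litters, 8.6971 for Cdkn1a, against 8.08 to 8.18, and 8.7129 for Mbl2, against 9.44 to 9.51. It was 6.5767 for Lgals2, against 7.41 to 7.75, and 13.8278 for Alb, against 13.86 to 13.88. Exposed litter 2 had 11.2855 for Slc4a1 (others 11.16 to 11.20) and 9.1515 for Gys2 (others 9.35 to 9.40). Exposed litter 3 had 3.7113 for Fhad1 (others 4.55 to 4.75), and exposed litter 4 had 11.7709 for Apoc2 (others 11.94 to 11.99).

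Among unexposed litters, litter 4 had 10.7467 for Tfrc (others 10.938 to 10.999) and 8.9709 for Lss (others 9.26 to 9.34). Litter 3 had 7.6077 for Sgo1 (others 7.85 to 7.91) and 4.9778 for Aqp3 (others 5.30 to 5.32). Litter 2 had 7.9202 for Igfbp3 (others 7.29 to 7.47), litter 5 had 9.8276 for Lpcat3 (others 9.49 to 9.57) and litter 1 had 7.6907 for Enho (others 7.95 to 8.05). No cause of these values was tested.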

How the results depend on the processing

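The counts at 5 mg/kg/day (565 higher, 240 lower) ran from 451 to 541 higher and 148 to 217 lower on leaving out 1 litter, and were 252 and 43 without unexposed litters 2, 3 and 5, which also leaves fewer samples. Genes lower numbered 191 without a filter, 342 with both tissues in 1 fit and 323 with a trended and robust spread, and genes higher 689 with both tissues. With probe sets tested separately there were 894 higher and 308 lower of 27901. Between 10 and 5 mg/kg/day the 1 call became 6 with both tissues, 0 with the replicate block, and 0 to 4 on leaving out 1 litter. Deviations of same-numbered litters had correlations from -0.13 to 0.13, 3 of 5 over 0.1. Those of differently numbered litters ran from -0.21 to 0.18. So few values cannot decide whether the numbers pair the litters. The replicate block gave 511 higher and 215 lower genes at 5 mg/kg/day. Of the 119 called genes that the rule names, 50 kept the call in all alternatives run, up to 22 a gene, 85 on leaving out each litter and 57 without unexposed litters 2, 3 and 5, and 10 of 35 uncalled ones passed in at least 1. Both tissues in 1 fit called 0 G2 and M genes lower (10 in the liver fit) and 15 erythroid genes (8), and the cause was not tested. Signs turned for Hamp (-0.7359 to 0.3129 on leaving out 1 litter, the last without exposed litter 1) and Cym (0.2151 without unexposed litters 2, 3 and 5). Dim probe sets limit small changes.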

Other observations

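Some called genes stood on none of the gene lists, and the ones given here were chosen after their values were seen. Aqp3, a water and glycerol channel, had 6.85, 7.07, 7.19, 6.95 and 7.09 in exposed litters 1 to 5, against 5.30, 5.32, 4.98, 5.32 and 5.31 in unexposed litters 1 to 5. The groups were far apart, and Aqp3 rose by 1.79 (SE 0.09, limma adjusted p = 8.06e-09). Rab30, a small GTPase of the Golgi, rose by 1.81 and G0s2, an inhibitor of triglyceride lipase, by 1.53. Retsat, which saturates retinol, rose by 1.30, the phospholipid transfer protein gene Pltp by 1.28 and the lipoprotein receptor gene Vldlr by 0.96. Other probe sets of Vldlr had 1.0999, 0.51, 0.35 and 0.11, and its average over probe sets was 0.52. Each of these 6 genes had all exposed litters above all unexposed ones.

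Growth and cytokine genes were among the falls on no list. Fst, the activin-binding protein follistatin, had 5.92, 5.80, 5.31, 5.27 and 5.79 in exposed litters, against 6.02, 6.46, 6.62, 6.43 and 6.15 in unexposed litters, and fell by 0.72 (limma adjusted p = 0.0066). Il6ra, the interleukin-6 receptor, fell by 0.54 (adjusted p = 0.0161) and by 0.88 at 10 mg/kg/day. The lower-dose calls of Fst and Il6ra ended without unexposed litters 2, 3 and 5 (adjusted p = 0.152 and 0.221). Gpc3, a proteoglycan that restrains fetal growth, had -0.47 at 5 and -0.77 at 10 mg/kg/day, and its lower-dose call ended without exposed litter 1, 2, 4 or 5 or unexposed litter 1, 2, 3 or 5 (adjusted p = 0.0446 with all litters, highest 0.107 without 1). Among 3652 tested probe sets without a gene symbol 77 were called higher and 37 lower.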
